A study of Arabidopsis thaliana with 23 samples.

Results

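Expansins and xyloglucan endotransglucosylase/hydrolases (XTH enzymes) are the plant's own wall-loosening proteins, and 43 of their genes were followed through 5 groups of Arabidopsis thaliana RNA-seq libraries. The members were taken as listed gene identifiers found in both deposited count tables. They comprised 19 alpha-expansins (EXPA), 2 beta-expansins (EXPB), 3 expansin-like genes (EXLA) and 19 XTH genes, out of 32224 genes in both tables. All 43 identifiers were found, and each one's symbol in the reference gene table matched the family name. In that table EXPA3 is called EXP3, XTH22 is TCH4 and XTH23 is XTR6.

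A growing plant cell enlarges by letting its wall yield to turgor. Expansins loosen the contacts between cellulose and the matrix without cutting a bond and act best in an acid wall, which the plasma membrane proton pumps provide. XTH enzymes cut xyloglucan, the main hemicellulose of the primary wall, and join the cut end to another chain, so that they can both loosen and rebuild it. Both families are large and their genes are used in different organs.

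The study asked about shoot branching and BRC1, a TCP transcription factor that holds axillary buds back. All plants were Col-0. Whole seedlings were kept for 7 days on plates with DMSO, the solvent, or with 2.5 µM rac-GR24, a racemic synthetic strigolactone, the class of hormone that represses branching. Buds were collected together with their leaf axil, as axillary tissue, from intact wild type (WT), from intact brc1-2 plants, which carry a mutant allele of BRC1, and from WT plants decapitated by removal of the main shoot at an inflorescence height of about 1 cm. The interval between decapitation and harvest was not given.

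Each group had 3 libraries. The seedling libraries held 31209344 to 44442493 counts and the axillary ones 47462342 to 61228766. BRC1 had 373 to 423 counts in the intact WT libraries, 2 to 4 in brc1-2 and 77 to 99 after decapitation, and in seedlings 0 to 2 on DMSO and 94 to 279 on rac-GR24. The meristem gene STM had 1971 to 2775 counts in every axillary library. Other meristem and axil boundary genes were lower there, CUC2 at 171 to 232, CUC3 at 67 to 217, LAS at 26 to 69 and CLV3 at 0 to 15. The summed root hair markers were near 0 in axillary tissue. Of the genes listed as root markers, PYK10 had 8990 to 29156 counts there, SCR 1715 to 2532 and SHR 1245 to 1661. Seedling and axillary tables carried different batch labels and were never tested against each other. A gene is said to have risen or fallen when edgeR's quasi-likelihood test gave an adjusted p under 0.05 over all genes of its table.

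Wall-loosening transcripts were abundant in all 5 groups, and a few members carried most of them. On the TPM scale, which corrects for gene length and allows genes to be compared, the 43 members summed to 2849 to 3015 in the DMSO libraries and 2431 to 2456 on rac-GR24. In axillary tissue they summed to 2903 to 2912 in intact WT, 2347 to 2381 in brc1-2 and 2815 to 2843 after decapitation. The 8 highest members of a group held between 64.3% and 69.4% of that sum.

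The leading gene differed between groups. XTH4 led on DMSO with 14.9% ± 0.254 of the members' TPM and XTH31 led on rac-GR24 with 20.4% ± 0.486 (SD, n = 3 libraries). In intact WT axillary tissue XTH24 led with 14.5% ± 0.0939, whereas XTH9 led in brc1-2 with 16.1% ± 0.219 and after decapitation with 17.0% ± 0.701. XTH9 is a shoot apex and stem gene, and XTH24 is also known as MERI5B and SEN4, a meristem and senescence gene. XTH4, like XTH9, takes part in the secondary growth of the stem.

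The summed levels of the families moved differently. On rac-GR24, similar shares of their tested members fell, 42.9% of expansins and 44.4% of XTH genes. Alpha-expansins summed to a mean TPM of 1099 ± 73.5 on DMSO and 575 ± 23.9 on rac-GR24 (SD, n = 3). The XTH members there summed to 1720 ± 25.3 and 1766 ± 10.5. That XTH sum combined 2 called rises with 8 called falls. XTH6 went from a mean of 56.2 to 202 TPM and XTH31 from 334 to 499 TPM. Among the falls, XTH4 went from 438 to 256 TPM and XTH19 from 125 to 43.2 TPM. In axillary tissue the alpha-expansin sum was 997 to 1014 TPM in intact WT and 1008 to 1029 after decapitation. In brc1-2 it was lower, at 944 to 951 TPM, without overlap. The XTH sum was 1673 to 1697 in intact WT, 1245 to 1267 in brc1-2 and 1535 to 1543 after decapitation. These groups did not overlap. In brc1-2, 6 XTH members fell and 6 rose against intact WT. XTH24, XTH7 and XTH31 fell from means of 421, 246 and 87.9 TPM to 118, 79.7 and 18.8 TPM. Among the rises, XTH9 went from 303 to 380 TPM. The sum of the beta-expansins EXPB1 and EXPB3, carried by EXPB3, was 119 to 125 TPM in brc1-2, 184 to 187 in intact WT and 239 to 243 after decapitation.

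**Figure D1:**
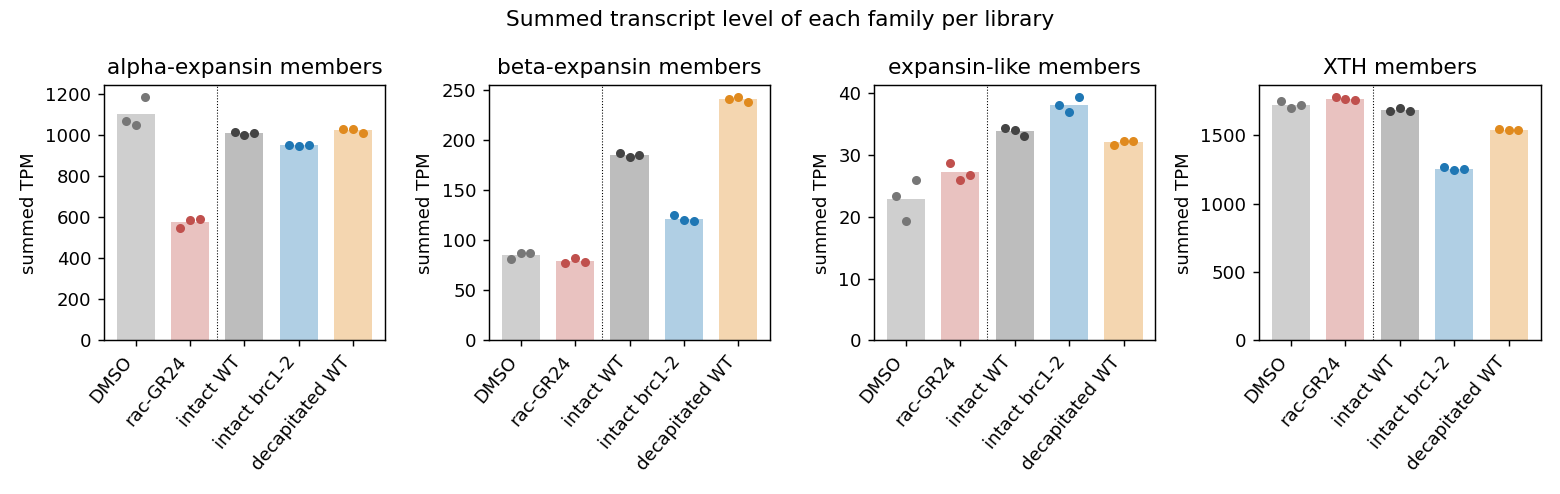
Summed TPM of the members of each family in each library (points) with the group mean (bars), for the 2 seedling groups left of the dotted line and the 3 axillary groups right of it; each panel has its own vertical axis from 0. The alpha-expansin sum on rac-GR24 lies at 547 to 591 TPM against 1047 to 1183 on DMSO, and the XTH sum in brc1-2 lies at 1245 to 1267 TPM against 1673 to 1697 in intact WT.

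Between the tissues, some members were present in only one. EXPA7 and EXPA18, the pair of expansins of root hairs, had 5.35 to 18.5 CPM in the seedling libraries. CPM are counts scaled to the library's total after TMM normalisation, and they compare libraries, not genes. In the 9 axillary libraries EXPA7 had 0 to 4 counts and EXPA18 0 to 2 counts, and both were left out of the axillary test. EXPA2, a gene of germinating seeds, and EXPA12 stayed under 0.5 CPM in all 15 libraries and were tested in neither table. EXPA20 and XTH25 were too low for the seedling test. This left 39 of the 43 members tested in each table. The filter reads the levels in the libraries themselves, so the counts over these 39 members describe the tested members and not the whole family.

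On rac-GR24 the alpha-expansins EXPA8, EXPA11, EXPA1, EXPA3 and EXPA10 and the XTH gene XTH19 fell by more than 2-fold, and XTH6 and the root hair expansin EXPA18 rose by more than 2-fold. Of the 39 members tested, 17 fell, 5 rose and 17 did not pass the test. Over all 21063 genes tested in seedlings, 24% were called in either direction, 12.4% higher and 11.7% lower, so the members that rose made up a share near that of all genes and those that fell a share above it, 43.6%. The median log2 change was -0.01 for the members and 0.0 for all genes. Past 2-fold, 6 members fell and 2 rose of the 39, and 3.65% of all genes were called at that size. Expansins accounted for 9 of the falls and 3 of the rises, and XTH genes for 8 and 2.

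**Figure D2:**
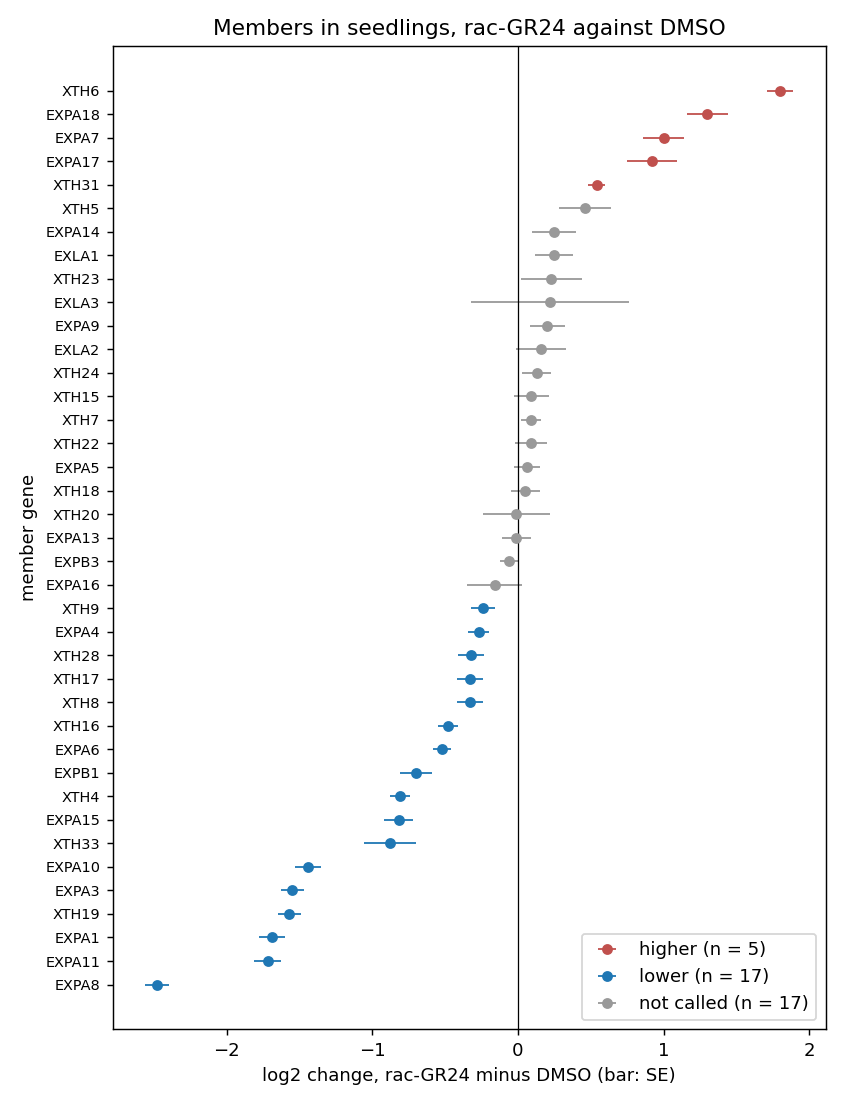
Log2 change on rac-GR24 against DMSO for the 39 members tested in seedlings, ordered by size (points, with the SE as bars), coloured by the call of edgeR's test. EXPA8 stands lowest at -2.48 and XTH6 highest at 1.80, and 17 members lie below 0 as called against 5 above it.

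EXPA8 (AT2G40610, TAIR10 chr2:16948791-16950705, minus strand) fell most. Its level was 71.1, 68.9 and 74.6 CPM on DMSO and 12.1, 12.4 and 14.1 CPM on rac-GR24. No library of either group came near the other group. The log2 change was -2.48 ± 0.08 (SE, here and below taken from the change and its F statistic), a 5.56-fold difference with edgeR adjusted p = 9.8e-11. In bulk tissue, fewer cells that use a gene and less of its RNA per cell cannot be told apart.

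EXPA1 (AT1G69530, chr1:26141726-26143538, plus strand), an expansin known from guard cells, was the most abundant alpha-expansin of both seedling groups by TPM. It had 318, 305 and 383 CPM on DMSO and 95.3, 103 and 114 CPM on rac-GR24, a log2 change of -1.69 ± 0.09 (adjusted p = 1.5e-08). EXPA11 (AT1G20190, chr1:6998335-6999839, minus strand) read 101, 88.9 and 100.4 CPM against 25.4, 29.7 and 33.1 CPM, a change of -1.72 ± 0.09 (adjusted p = 8.4e-09). In both genes the lowest DMSO library stood more than 2-fold above the highest rac-GR24 library.

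EXPA10 (AT1G26770, chr1:9259432-9261313, plus strand), which promotes leaf and petiole growth, followed the same course. The DMSO libraries held 119.6, 109.6 and 103 CPM of it and the rac-GR24 libraries 34.7, 43.8 and 44.3 CPM, a log2 change of -1.44 ± 0.09 (adjusted p = 6.5e-08). EXPA3 (AT2G37640, chr2:15787523-15790139, minus strand) went from 125, 106 and 125 CPM to 39.3, 36.8 and 45.3 CPM, a change of -1.55 ± 0.08 (adjusted p = 1.9e-08). Smaller falls were seen for EXPA15 at -0.82 ± 0.10, EXPB1 at -0.70 ± 0.11, EXPA6 at -0.52 ± 0.06 and EXPA4 at -0.27 ± 0.07.

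The 3 expansins that rose are known from root hairs and lateral roots. EXPA18 (AT1G62980, chr1:23331563-23333246, plus strand) read 6.61, 5.35 and 7.83 CPM on DMSO and 14.2, 18.5 and 16.6 CPM on rac-GR24, a log2 change of 1.30 ± 0.14 (adjusted p = 9.3e-06). EXPA7 (AT1G12560, chr1:4276505-4277969, plus strand) read 7.00, 10.1 and 7.34 CPM against 13.9, 17.7 and 17.1 CPM, a change of 1.00 ± 0.14 (adjusted p = 0.00011). EXPA17 (AT4G01630, chr4:700566-701769, plus strand), which acts in lateral root emergence, read 4.55, 8.12 and 5.39 CPM against 11.7, 12.1 and 10.2 CPM. Its change was 0.92 ± 0.17 (adjusted p = 0.0011), and the DMSO libraries of EXPA17 were more spread than those of the other members described here. EXPA14, another lateral root expansin, did not pass at 0.25 ± 0.15 (adjusted p = 0.27).

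Some root and root hair markers were higher on rac-GR24 too, where 12.4% of all genes were higher and 11.7% lower. Of 6 root hair markers, 5 were tested and 3 rose, COBL9 by 0.57 ± 0.15, LRX1 by 0.71 ± 0.21 and RHS12 by 1.35 ± 0.14. Their summed TPM was 9.22 to 14.1 on DMSO and 21.7 to 25.2 on rac-GR24. The summed TPM of 5 root markers ran from 2429 to 2833 on DMSO and from 4341 to 4653 on rac-GR24. That sum is mostly PYK10, the one root marker that rose, by 0.78 ± 0.07, while CASP1, SCR, WER and SHR did not pass. Leaf photosynthesis markers summed to 32822 to 35318 TPM on DMSO and 28349 to 29846 on rac-GR24, with 3 of 5 lower, and 2 of 6 secondary wall markers fell. The part of tissue make-up in the changes of the members was not tested.

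Among the XTH members the largest rise and the largest fall stood far from the rest. XTH6 (AT5G65730, chr5:26298728-26300529, plus strand) went from 57.5, 55.02 and 43.3 CPM on DMSO to 184, 180.2 and 179 CPM on rac-GR24. The log2 change was 1.80 ± 0.09 (adjusted p = 4.7e-09), the largest rise of any member in seedlings. XTH19 (AT4G30290, chr4:14828712-14830224, minus strand), of the root-expressed XTH17 to XTH20 subgroup, went from 116, 96.8 and 102 CPM to 33.6, 38.3 and 33.7 CPM, a change of -1.57 ± 0.08 (adjusted p = 6.6e-09). Its subgroup did not move as one. XTH17 fell by 0.33 on the log2 scale, and XTH18 at 0.05 ± 0.10 and XTH20 at -0.01 ± 0.23 did not pass.

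XTH31 (AT3G44990, chr3:16446935-16448844, minus strand), a root wall enzyme known for its part in aluminium sensitivity, was already among the most abundant members on DMSO. It read 297, 300.4 and 278 CPM on DMSO and 408, 423 and 441 CPM on rac-GR24, a log2 change of 0.54 ± 0.06 (adjusted p = 2.5e-05). XTH4, the leading member on DMSO, fell by 0.81 on the log2 scale, from 422 to 455 CPM down to 243 to 269.6 CPM. Further falls were XTH33, a membrane-anchored XTH, at -0.88 ± 0.18, XTH16, known from shade responses, at -0.48 ± 0.07, and XTH8, XTH17, XTH28 and XTH9 at -0.33 to -0.24. XTH7, second on DMSO by TPM, did not pass at 0.09 ± 0.07. Nor did the other 16 members, at -0.16 to 0.46, the ends being EXPA16 and XTH5.

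**Figure D3:**
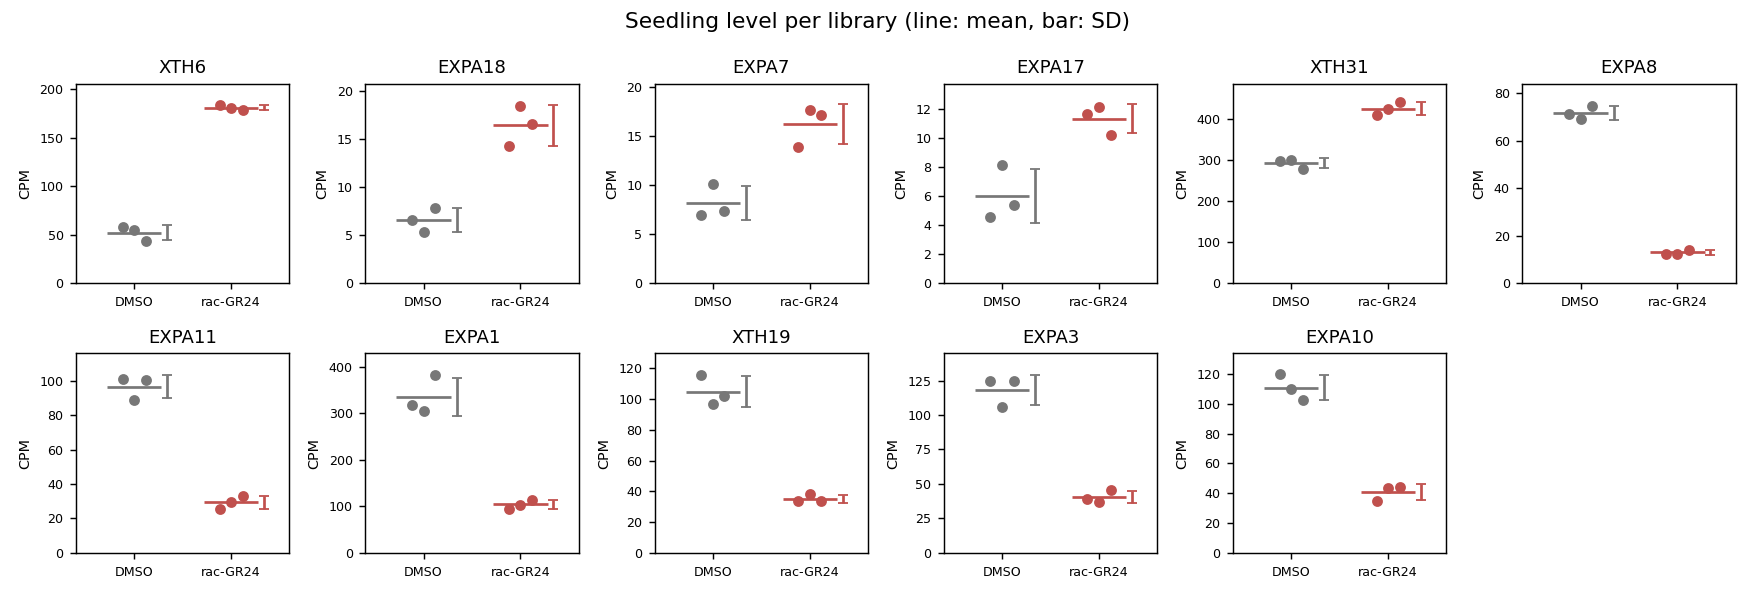
CPM of the 11 members described by library in the 2 seedling groups (points), with the mean (line) and SD (bar, n = 3); every panel has its own axis from 0. The members were picked for groups that do not overlap, and EXPA17 shows the widest DMSO group for its level, 4.55 to 8.12 CPM.

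Partner genes of wall loosening were also called, where 12.4% of all genes tested in seedlings were higher and 11.7% lower. Of 4 proton pump genes, 3 rose slightly on rac-GR24, among them AHA2 by 0.35 ± 0.06 and AHA1 by 0.21 ± 0.07. Of 10 genes for xyloglucan synthesis and trimming, 4 fell and 2 rose; the falls included the xyloglucan backbone synthase CSLC4 at -0.76 ± 0.09, the beta-galactosidase BGAL10 at -0.66 ± 0.10 and the alpha-xylosidase XYL1 at -0.60 ± 0.06. Of 9 genes for primary wall cellulose, only CESA5 passed, at 0.50 ± 0.08. Among 10 XTH genes tested that were not members, 5 rose and 1 fell, with XTH26 at 1.96 ± 0.27, XTH13 at 1.77 ± 0.19 and XTH14 at 1.36 ± 0.09. EXLB1, the one further expansin tested, rose by 0.62 ± 0.18.

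The smallest falls depended on single libraries. Without rac-GR24 library 3, EXPA4 stood at -0.22 (adjusted p = 0.053), XTH9 at -0.14 (adjusted p = 0.2), XTH17 at -0.32 (adjusted p = 0.06) and XTH28 at -0.31 (adjusted p = 0.053). Without rac-GR24 library 1, XTH17 stood at -0.24 (adjusted p = 0.09) and XTH8 at -0.27 (adjusted p = 0.076). Without DMSO library 1 or 2, XTH9 stood at -0.21 (adjusted p = 0.12) or -0.23 (adjusted p = 0.096), and without DMSO library 2, XTH17 stood at -0.32 (adjusted p = 0.055). Without DMSO library 3, XTH8 stood at -0.21 (adjusted p = 0.062) and XTH28 at -0.22 (adjusted p = 0.059), while XTH5 passed at 0.76 (adjusted p = 0.0016), as it did with the DESeq2 Wald test at 0.47 (adjusted p = 0.038) and with no filter at 0.46 (adjusted p = 0.021), and EXPA14 at 0.48 (adjusted p = 0.012). XTH22 passed at 0.25 (adjusted p = 0.049) and XTH24 at 0.28 (adjusted p = 0.028) without DMSO library 1.

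In the axils of brc1-2 plants, XTH31, XTH24 and XTH7 fell by more than 3-fold, and XTH16, EXPB1, EXPA8 and EXPA15 rose by less than 2-fold. Of the 39 members tested, 12 rose, 16 fell and 11 did not pass. Over all 21539 genes tested in axillary tissue, 60.9% were called, 30.4% higher and 30.5% lower, so the share of members that rose, 30.8%, lay near that of all genes and the share that fell was 41.0%. The members' median log2 change was 0.0, as was that of all genes. Past 2-fold, 6 members fell and 2 rose, and 7.16% of all genes were called at that size. Expansins split into 6 that rose and 10 that fell of 20 tested, and XTH genes into 6 and 6 of 19.

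XTH31, XTH24 and XTH7 were the XTH genes of over 1 CPM that fell most. XTH31 read 79.96, 83.5 and 78.8 CPM in intact WT and 17.0, 17.7 and 16.2 CPM in brc1-2, a log2 change of -2.25 ± 0.04 (adjusted p = 6.4e-26). XTH24 (AT4G30270, chr4:14819192-14820595, minus strand) read 338, 339 and 332 CPM against 94.2, 94.3 and 90.04 CPM, a change of -1.86 ± 0.03 (adjusted p = 1.2e-26). XTH7 (AT4G37800, chr4:17775370-17777445, minus strand) read 208, 209 and 210.5 CPM against 64.8, 66.4 and 68.5 CPM, a change of -1.65 ± 0.03 (adjusted p = 6e-25). For all 3 genes the libraries of a group lay close together and the groups were far apart.

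Several expansins fell too. EXPA5 (AT3G29030, chr3:11011262-11013451, minus strand), linked to brassinosteroid-driven growth, read 134, 133 and 129.96 CPM in intact WT and 77.2, 79.5 and 76.2 CPM in brc1-2, a log2 change of -0.77 ± 0.04 (adjusted p = 7.2e-17). EXPB3, the main beta-expansin, fell by 0.76 and EXPA4 by 0.57 on the log2 scale. EXPA17 was low in all axillary libraries, with 1.80, 1.42 and 1.48 CPM in intact WT and 0.397, 0.537 and 0.329 CPM in brc1-2, a change of -1.89 ± 0.29 (adjusted p = 2.2e-06). EXLA3 (AT3G45960, chr3:16892702-16894153, plus strand) read 2.93, 2.53 and 2.48 CPM against 1.11, 0.914 and 0.756 CPM, a change of -1.52 ± 0.20 (adjusted p = 2.1e-07). The further falls ran from -0.08 for EXPA6 to -0.66 for EXPA11 and took in EXPA3, EXPA13, EXPA20, XTH4 and XTH23, with XTH20 at -1.56 ± 0.57. The 11 members that did not pass lay between -0.04 and 0.63, the ends being EXPA9 and XTH25.

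The rises in brc1-2 were smaller. XTH16 (AT3G23730, chr3:8550037-8551403, plus strand) had 52.3, 51.9 and 50.1 CPM in intact WT and 88.9, 85.3 and 85.4 CPM in brc1-2, a log2 change of 0.75 ± 0.04 (adjusted p = 9.6e-17). EXPA15 (AT2G03090, chr2:916806-918671, minus strand) had 74.6, 74.6 and 75.5 CPM against 103, 101 and 100.1 CPM, a change of 0.44 ± 0.03 (adjusted p = 2e-12). XTH9, the leading member there, rose by 0.30 ± 0.03, TCH4 (XTH22), the touch-induced member, by 0.40 ± 0.06 and EXPA1 by 0.21 ± 0.03. EXLA2, XTH8 and EXPA14 rose by 0.27 to 0.63 on the log2 scale. The biological coefficient of variation was 5.11% across the axillary libraries and 8.92% across the seedling libraries.

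EXPA8 and EXPB1 also rose. EXPA8 read 21.01, 18.2 and 19.998 CPM in intact WT and 29.1, 25.9 and 27.3 CPM in brc1-2, a log2 change of 0.48 ± 0.06 (adjusted p = 1.3e-07). EXPB1 (AT2G20750, chr2:8940833-8942706, plus strand) read 10.996, 10.8 and 10.7 CPM against 17.9, 17.1 and 14.4 CPM, a change of 0.60 ± 0.08 (adjusted p = 4.5e-07). The only rises past 2-fold were of barely expressed genes. XTH19 had 1.12, 0.842 and 0.853 CPM against 2.32, 2.24 and 2.56 CPM, a change of 1.34 ± 0.22 (adjusted p = 4.4e-06). XTH18 (AT4G30280, chr4:14825757-14827211, minus strand) had 0.778, 1.05 and 1.26 CPM against 2.02, 2.53 and 2.38 CPM, a change of 1.16 ± 0.21 (adjusted p = 2.9e-05).

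Of the partner genes in brc1-2, the cellulose list leaned lower. Of 9 genes, 5 fell and 2 rose, 55.6% and 22.2% against 30.5% and 30.4% of all genes. The falls included the endoglucanase KOR1 at -0.52 ± 0.03, the wall-organising COB at -0.45 ± 0.03 and the synthase CESA1 at -0.25 ± 0.03. Of 4 proton pumps, 3 fell by about as little as AHA1, at -0.20 ± 0.02, and 1 rose. Of 10 xyloglucan genes, 5 rose and 4 fell, with BGAL10 at 0.89 ± 0.05, XYL1 at 0.31 ± 0.03 and the xylosyltransferase XXT2 at -0.37 ± 0.04. Of 6 other XTH genes tested, 1 rose and 2 fell, the more abundant being XTH32 at -0.42 ± 0.04. With 60.9% of all genes called, the pump, xyloglucan and XTH counts are not read as particular to these short lists.

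Tissue markers also differed between brc1-2 and intact WT, where 30.4% of all genes were higher and 30.5% lower. All 6 anther and pollen markers rose, their summed TPM being 27.5 to 30.1 in brc1-2 and 6.66 to 7.27 in intact WT, where MS1 and CYP703A2 were at 0 counts. Leaf photosynthesis markers summed to 30367 to 30534 TPM against 22389 to 22611, with 4 of 5 higher. Secondary wall markers summed to 145.5 to 151.7 TPM against 155 to 159, with 3 higher and 2 lower of 6. The 5 genes of the root list summed to 195 to 201 TPM against 298 to 311, mostly PYK10, which fell by 0.82 on the log2 scale, while SCR rose. CASP1 of that list had 4 to 16 counts in the axillary libraries and 801 to 1077 in the seedling ones. The sum is therefore not read as an amount of root tissue in axils. The part of tissue make-up in the members' changes in brc1-2 was not tested. XTH28, which acts in stamen filaments, had 40.2 to 42.1 CPM in brc1-2 and 41.6 to 43.3 CPM in intact WT and did not pass. In seedlings XTH28 also had means of 33.6 CPM on DMSO and 26.9 CPM on rac-GR24, so its level is not read as a measure of stamen tissue.

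Single libraries ended 5 calls in brc1-2. EXPA6 stood between -0.08 and -0.07 with adjusted p of 0.055 to 0.12 without intact WT library 2 or 3 or any 1 brc1-2 library. With all libraries kept it stood at -0.07 with DESeq2 size factors (adjusted p = 0.064) and with the DESeq2 Wald test (adjusted p = 0.057). EXPA3 stood at -0.12 to -0.10 (adjusted p = 0.051 to 0.11) without intact WT library 1 or 3 or brc1-2 library 1. EXPA14 stood at 0.43 to 0.54 (adjusted p = 0.072 to 0.12) without intact WT library 1 or 3 or brc1-2 library 2b, and XTH20 at -1.46 to -1.27 (adjusted p = 0.056 to 0.09) without intact WT library 3 or brc1-2 library 1 or 2a. EXPA20 stood at -0.63 to -0.50 (adjusted p = 0.056 to 0.12) without any 1 library except intact WT library 2, and 86.3% of its exon bases are shared with a gene on the other strand, so its counts are uncertain. XTH33 passed without intact WT library 3 at 0.73 (adjusted p = 0.042) or brc1-2 library 2b at 0.79 (adjusted p = 0.016), and with all libraries kept at 0.60 to 0.61 (adjusted p = 0.035 to 0.05) under DESeq2 size factors, the DESeq2 Wald test, no filter and the filter of 1 CPM in 3 libraries. EXPA10 passed at 0.06 (adjusted p = 0.045) with only the 2 groups fitted.

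After decapitation XTH16, XTH9, XTH31 and the alpha-expansin EXPA10 rose, and XTH24, EXPA11, EXPA8 and XTH17 fell. Of the 39 members tested, 12 rose, 16 fell and 11 did not pass. Over all genes tested, 62.9% were called, 29.4% higher and 33.5% lower, so that the members' shares of 30.8% and 41.0% were close to and above these. The members' median log2 change was -0.14 and that of all genes -0.03. Past 2-fold, 3 members fell and 1 rose, with 7.85% of all genes called at that size. XTH genes split into 8 that rose and 7 that fell of 19, and expansins into 4 and 9 of 20.

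XTH9 (AT4G03210, chr4:1415617-1417444, plus strand) was the most abundant member after decapitation by TPM. It had 307, 303 and 304 CPM in intact WT and 486, 490.5 and 433 CPM after decapitation, a log2 change of 0.62 ± 0.03 (adjusted p = 2.7e-15). XTH16 went from 50.1 to 52.3 CPM up to 92.6, 90.8 and 89.8 CPM, a change of 0.82 ± 0.04 (adjusted p = 1.1e-17). XTH31 went from 78.8 to 83.5 CPM up to 119.8, 124 and 119.8 CPM, a change of 0.59 ± 0.04 (adjusted p = 5e-14). Decapitated library 3 was the lowest of its group for XTH9.

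Lower in abundance, XTH23 (AT4G25810, chr4:13128394-13129927, plus strand) had 4.97, 4.84 and 4.43 CPM in intact WT and 7.93, 8.34 and 7.53 CPM after decapitation, a log2 change of 0.74 ± 0.11 (adjusted p = 1.2e-06). XTH33 (AT1G10550, chr1:3479066-3481041, minus strand) had 0.778, 0.614 and 0.890 CPM against 1.48, 1.53 and 1.39 CPM, a change of 0.95 ± 0.26 (adjusted p = 0.0023). XTH20 (AT5G48070, chr5:19481897-19483527, plus strand), a target of a wound-induced NAC factor in cut stems, was looked at after its values were seen, as its mean stayed under 1 CPM. It had 14, 8 and 18 counts in the intact WT libraries and 58, 40 and 54 counts after decapitation, a change of 1.93 ± 0.41 (adjusted p = 0.00019). That was the one rise past 2-fold, and XTH19, the other member tied to that factor, did not pass at 0.23 ± 0.23 (adjusted p = 0.4).

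Of the expansins, EXPA10 rose most. It had 93.6, 86.5 and 90.2 CPM in intact WT and 128, 134 and 124 CPM after decapitation, a log2 change of 0.52 ± 0.04 (adjusted p = 3.4e-13). EXPB3 (AT4G28250, chr4:13999625-14002124, minus strand) rose by 0.37 ± 0.03, EXPA15 by 0.21 ± 0.03 and EXPA4 by 0.13 ± 0.03. None of the 4 reached 2-fold. Of the XTH genes not yet named, TCH4 rose by 0.37 ± 0.06 and XTH28 by 0.28 ± 0.04.

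The largest fall after decapitation was of XTH24, from 332 to 339 CPM down to 113, 108 and 113 CPM, a log2 change of -1.60 ± 0.03 (adjusted p = 3.7e-25). EXPA11 had 17.96, 20.8 and 18.3 CPM in intact WT and 9.55, 8.5 and 9.44 CPM after decapitation, a change of -1.06 ± 0.08 (adjusted p = 1.3e-12). EXPA8 went from 18.2 to 21.01 CPM down to 9.76, 9.87 and 10.3 CPM, a change of -0.98 ± 0.07 (adjusted p = 3.2e-13). These genes, like all those given by library, were chosen for groups that do not overlap.

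XTH17 (AT1G65310, chr1:24257054-24258506, plus strand), which has been reported to pair with XTH31 in roots, fell while XTH31 rose. It had 8.00, 6.63 and 6.99 CPM in intact WT and 4.17, 3.88 and 3.11 CPM after decapitation, a log2 change of -0.95 ± 0.12 (adjusted p = 6.8e-08). XTH6 had 106, 106 and 100.2 CPM against 67.6, 70.4 and 71.9 CPM, a change of -0.57 ± 0.04 (adjusted p = 4.2e-14). EXPA17 fell from 1.42 to 1.80 CPM down to 0.675 to 0.815 CPM, a change of -1.03 ± 0.27 (adjusted p = 0.0016). XTH4 fell by 0.50, EXPA5 by 0.42 and XTH7 by 0.32 on the log2 scale, each from more than 100 CPM. The further falls ran from -0.11 for EXPA1 to -0.53 for EXPA16 and took in EXPA3, EXPA13, EXPB1, XTH8 and XTH15. XTH15, 31.6% of whose exon bases are shared with a gene on the other strand, is uncertain. The 11 members that did not pass lay between -0.75 and 0.48, the ends being XTH25 and XTH18.

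Among partner genes after decapitation, 4 of 9 cellulose genes fell and none rose, led by KOR1 at -0.47 ± 0.03. That is 44.4% called, all lower, against 62.9% of all genes called and 33.5% lower. Of 4 proton pumps, 3 fell, AHA1 by 0.35 on the log2 scale, and AHA11 rose by 0.35. Of 10 xyloglucan genes, 4 rose and 3 fell, with XYL1 at 0.41 ± 0.03, BGAL10 at 0.56 ± 0.05 and the galactosyltransferase XLT2 at -0.39 ± 0.04. Of 6 other XTH genes tested, 2 rose and 3 fell. XTH11 stood at 2.02 ± 0.23, from a mean of 0.712 CPM in intact WT, and XTH30 at -0.84 ± 0.21. The further expansin EXLB1 fell by 1.38 on the log2 scale. At 62.9% of all genes called, the pump, xyloglucan and XTH counts are not read as particular to these short lists.

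Secondary wall markers all fell after decapitation, 6 of 6, with a summed TPM of 109 to 114 against 155 to 159 in intact WT. All 5 leaf photosynthesis markers fell too, and 3 of 6 anther markers rose, where 33.5% of all genes fell and 29.4% rose. The anther rises were near the floor. A9 went from 0 to 2 counts in intact WT to 7 to 14, AMS from 2 to 12 to 18 to 40, and LAP5 from 9 to 11 to 13 to 32. The 6 anther markers summed to 6.66 to 7.27 TPM in intact WT and 7.59 to 8.12 TPM after decapitation. The root list, not read as root tissue in axils, summed to 481 to 508 TPM against 298 to 311, PYK10 rising by 0.70 ± 0.03 and SCR by 0.21 ± 0.05. The part of these shifts in the members' changes was not tested. EXPA16 lost its call without decapitated library 1 or intact WT library 2 or 3, at -0.52 to -0.42 (adjusted p = 0.058 to 0.13). EXPA13 lost it without decapitated library 3 or intact WT library 1 or 3, at -0.12 to -0.09 (adjusted p = 0.11 to 0.17), and also with DESeq2 size factors at -0.12 (adjusted p = 0.068), the DESeq2 Wald test at -0.12 (adjusted p = 0.088), no filter at -0.11 (adjusted p = 0.09) and only the 2 groups fitted at -0.11 (adjusted p = 0.099). EXPA1 lost it when only the 2 groups were fitted, at -0.08 (adjusted p = 0.061), while without intact WT library 2 EXPA14 passed at 0.59 (adjusted p = 0.038) and without intact WT library 3 XTH18 at 0.64 (adjusted p = 0.031), as XTH18 did with no filter at 0.50 (adjusted p = 0.046).

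Loss of BRC1 and decapitation are both known to free axillary buds. Because both changes are measured against the same intact WT libraries, the direct comparison of decapitated WT with brc1-2 was used as the test of their difference. Of the 39 members, 15 were higher in decapitated WT, 16 were lower and 8 did not pass. Over all genes, 48.5% were called, 24.4% higher and 24.1% lower, so both shares of members, 38.5% and 41.0%, were above those of all genes. The median log2 difference was -0.05 for the members and 0.0 for all genes. XTH31, EXPB3 and XTH7 were higher in decapitated WT than in brc1-2, and EXPA8, EXPB1 and XTH17 lower. Past 2-fold, 6 members were higher and 5 lower, with 5.64% of all genes at that size.

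**Figure D4:**
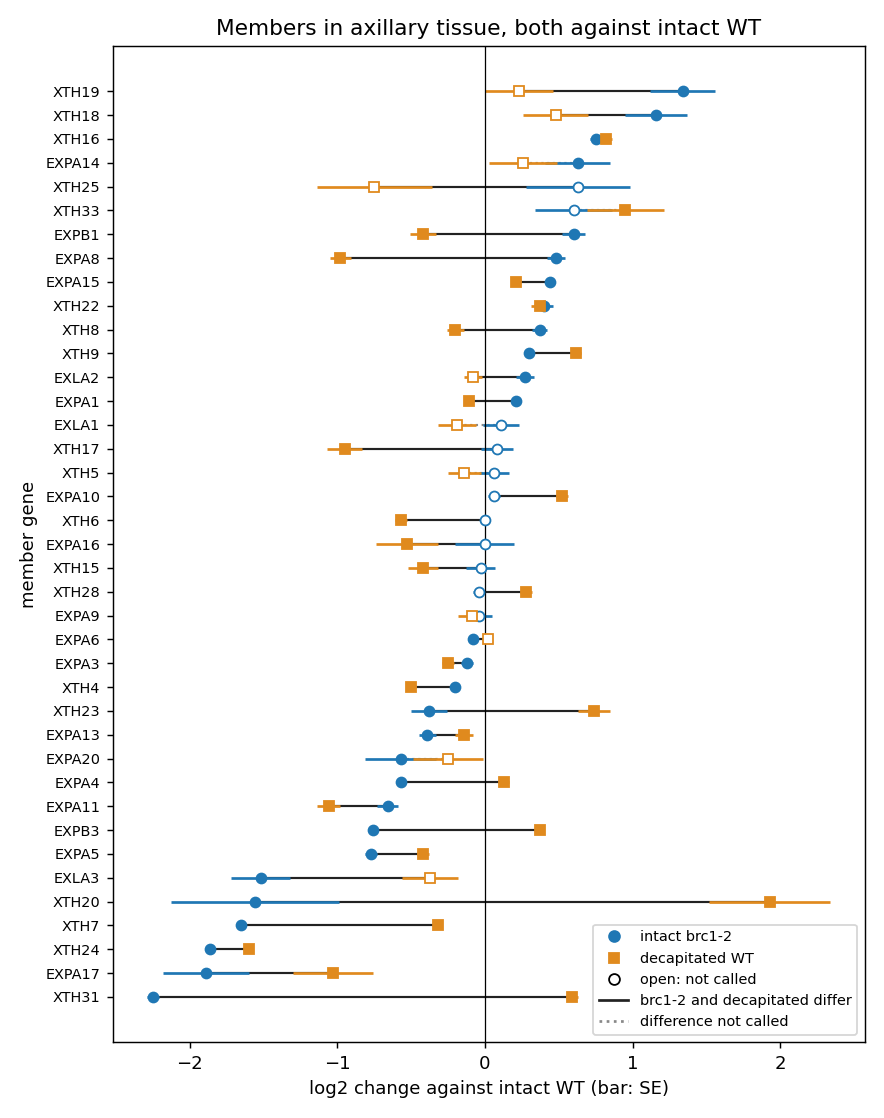
Log2 change of each of the 39 members against intact WT in brc1-2 (blue circles) and after decapitation (orange squares), with the SE as bars; open symbols did not pass edgeR's test, and a solid line joins the pair where decapitated WT and brc1-2 differed. XTH31 spans from -2.25 to 0.59, while XTH24 lies at -1.86 and -1.60.

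XTH31 differed most among members of over 1 CPM. Its log2 change was -2.25 in brc1-2 and 0.59 after decapitation, and the direct difference was 2.84 ± 0.04, a 7.14-fold higher level in decapitated WT (adjusted p = 2.2e-27). XTH20, at a lower level, had 2, 4 and 8 counts in brc1-2 against 40 to 58 after decapitation, a difference of 3.49 ± 0.49 (adjusted p = 7.8e-07). EXPB3 read 144, 141 and 142 CPM in brc1-2 and 314, 319 and 299 CPM after decapitation, a 2.18-fold difference (adjusted p = 5.7e-22). XTH23, with 3.18, 3.83 and 3.91 CPM in brc1-2, differed by 1.12 ± 0.11 and EXPA4 (AT2G39700, chr2:16543832-16545746, minus strand), with 102, 101 and 105 CPM in brc1-2 and 168, 166 and 164 CPM after decapitation, by 0.69 ± 0.03. These 5 genes had fallen in brc1-2 and risen after decapitation. Over all genes tested, 30.5% fell in brc1-2 and 29.4% rose after decapitation. How many of all genes did both, or the reverse, was not counted. Nothing particular to the members is therefore read from the patterns across these 2 comparisons.

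The opposite pattern, a rise in brc1-2 and a fall after decapitation, was seen for EXPA8, EXPB1, XTH8 and EXPA1. EXPA8 read 29.1, 25.9 and 27.3 CPM in brc1-2 against 9.76, 9.87 and 10.3 CPM, a difference of -1.46 ± 0.07 (adjusted p = 7.6e-17). EXPB1 read 17.9, 17.1 and 14.4 CPM against 8.46, 7.3 and 8.58 CPM, a difference of -1.02 ± 0.09 (adjusted p = 6.1e-11). XTH8 (AT1G11545, chr1:3878495-3880391, minus strand) differed by -0.57 ± 0.05, with 37.8, 42.7 and 39.98 CPM in brc1-2 and 26.9, 28.01 and 26.3 CPM after decapitation, and EXPA1 by -0.32 ± 0.03.

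Other members moved one way in both and differed in size, or moved in one only. XTH7 fell by 1.65 in brc1-2 and by 0.32 after decapitation on the log2 scale, a difference of 1.33 ± 0.03 (adjusted p = 1.6e-22). EXLA3 fell in brc1-2, with 1.80 to 2.26 CPM left after decapitation, and differed by 1.15 ± 0.21. XTH19 and XTH18 had risen in brc1-2 and differed by -1.12 ± 0.21 and -0.69 ± 0.21. XTH17 had fallen after decapitation and differed by -1.03 ± 0.12, with 7.54, 8.29 and 7.02 CPM in brc1-2.

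XTH24 was low in both. Its level of 90.04 to 94.3 CPM in brc1-2 and 108 to 113 CPM after decapitation left a difference of 0.26 ± 0.03 (adjusted p = 6.5e-08), against falls of 1.86 and 1.60. XTH16, up by 0.75 and 0.82, showed a direct difference of 0.07 ± 0.03 (adjusted p = 0.077), and TCH4, up by 0.40 and 0.37, one of -0.04 ± 0.05 (adjusted p = 0.63). A p that misses the threshold does not show that the levels were equal.

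**Figure D5:**
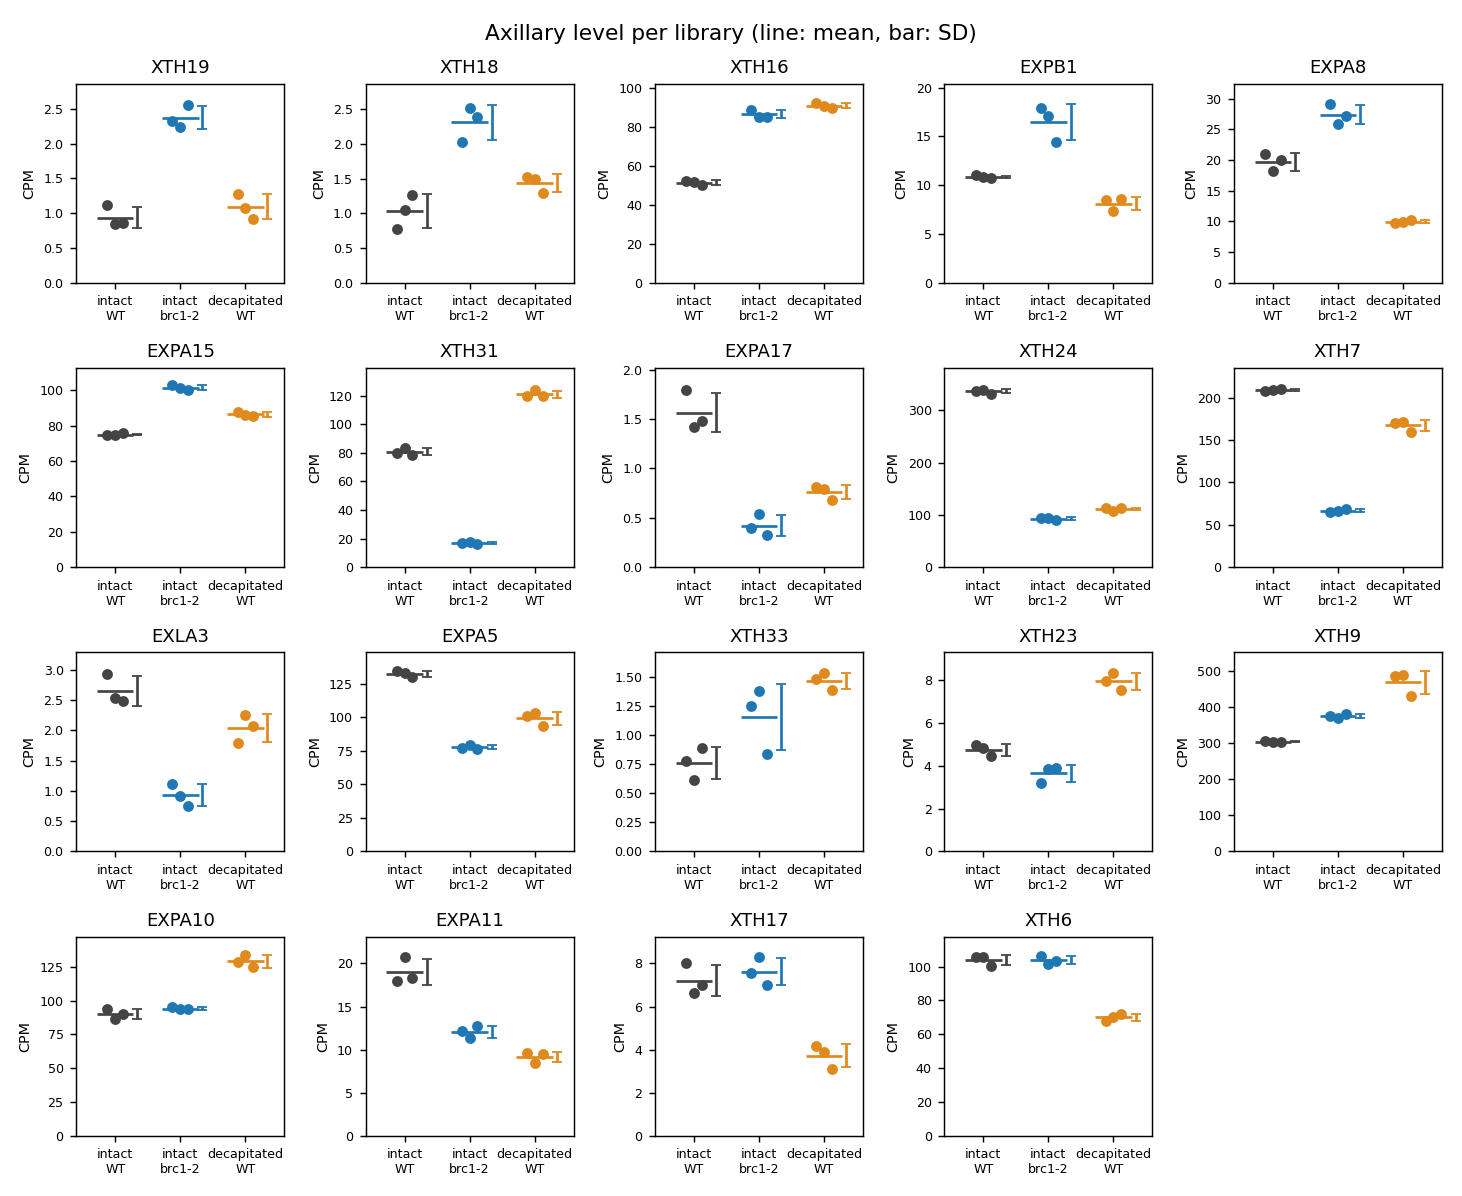
CPM of the 19 members described by library in intact WT, brc1-2 and decapitated WT (points), with the mean (line) and SD (bar, n = 3); every panel has its own axis from 0. XTH31 is lowest in brc1-2 at 16.2 to 17.7 CPM and highest after decapitation at 119.8 to 124 CPM, whereas XTH24 is low in both at 90.04 to 113 CPM against 332 to 339 in intact WT.

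Anther markers were higher in brc1-2 than in decapitated WT in 6 of 6 cases, leaf photosynthesis markers in 5 of 5 and secondary wall markers in 5 of 6. Among all genes, 24.1% were higher in brc1-2 than in decapitated WT. PYK10 was higher in decapitated WT by 1.53 ± 0.03 on the log2 scale. Their part in the differences between members was not tested. EXPA17 lost its call without decapitated library 1 or 2 or brc1-2 library 1 or 2b, at 0.70 to 0.83 (adjusted p = 0.052 to 0.097), and EXPA16 without decapitated library 1 or 2 or brc1-2 library 2b, at -0.55 to -0.42 (adjusted p = 0.06 to 0.14). EXPA3 lost it without decapitated library 3 or brc1-2 library 2a or 2b, at -0.12 to -0.07 (adjusted p = 0.07 to 0.13), and EXPA6 without decapitated library 2 or brc1-2 library 1, at 0.07 to 0.09 (adjusted p = 0.064 to 0.09). XTH16 passed without decapitated library 3 at 0.08 (adjusted p = 0.037), with DESeq2 size factors or the DESeq2 Wald test at 0.08 (adjusted p = 0.049 in both) and with no filter at 0.11 (adjusted p = 0.014). EXLA1 passed with upper-quartile factors at -0.30 (adjusted p = 0.048), with the filter of 1 CPM in 3 libraries at -0.31 (adjusted p = 0.047) and with only the 2 groups fitted at -0.29 (adjusted p = 0.043).

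The seedling and the axillary libraries share no sample, so the calls on rac-GR24 could be set beside those in brc1-2 and after decapitation. Of the 17 members that fell on rac-GR24, 8 rose in brc1-2, which is 47.1% of them and 66.7% of the 12 that rose there. Of all genes that rose in brc1-2 and were tested in both tables, 22.6% fell on rac-GR24. Members fell on rac-GR24 more often than all genes, 17 of the 37 tested in both tables against 2413 of 19929. Because of that, nothing is read from the gap between 66.7% and 22.6%. The 8 members that fell on rac-GR24 and rose in brc1-2 were EXPA1, EXPA8, EXPA15, EXPB1, XTH8, XTH9, XTH16 and XTH19. A further 5 fell in both, EXPA3, EXPA4, EXPA6, EXPA11 and XTH4. Among all genes that fell on rac-GR24 and were tested in both tables, 58.9% rose and 19.5% fell in brc1-2. The members' shares were 47.1% and 29.4%, and nothing particular to them is read from these. EXPA17 and XTH31 rose on rac-GR24 and fell in brc1-2, 2 of the 3 that rose on rac-GR24 and were tested in both tables, and no member rose in both. Over all genes that rose on rac-GR24, 61.4% fell and 12.3% rose in brc1-2. After decapitation, 8 of the 17 members that fell on rac-GR24 fell too and 7 rose. These shares were 47.1% and 41.2%, against 31.7% and 43.8% of all genes. Among the 8 were EXPA1, EXPA8, EXPB1 and XTH8, which had risen in brc1-2. Of the 3 members that rose on rac-GR24, 2 fell after decapitation and 1 rose. Nothing particular to the members is read from these shares either.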

How the data were processed

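A seedling table and an axillary table of raw counts, whole numbers for each gene, were deposited by the authors. Per the file headers, both carry the exon positions and lengths of a featureCounts output. Tools named in the submitters' processing notes, with no order or settings, are fastp 0.23.1, HISAT2 2.0.5, featureCounts 2.0.1, SAMtools 1.13 and cutadapt 3.5, and the build is TAIR10. No source used here gives strand use or the treatment of reads shared by paralogs. Counts of near-identical members and of genes with antisense partners are therefore uncertain: 31.6% of XTH15's exon bases, and 2.1% to 5.9% of those of EXPA2, EXPA7, EXPA18 and EXLA1, are shared with a gene on the other strand. The share of even numbers among counts of 1 to 20 was 60.8% to 71.8%, as when both mates are counted, so a count is not an independent fragment. The seedling table ended in 1 incomplete line and lacked 609 genes of the axillary table, none of them a member.

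Low genes were removed by filterByExpr (a minimum count of 10 and a total of 15). Counts were TMM-scaled and tested with edgeR 4.0.16 in R 4.3.3 (glmQLFit, glmQLFTest), with Benjamini-Hochberg adjustment over all genes of a table and a threshold of 0.05. The 6 seedling libraries formed one fit and the 9 axillary libraries another. TPM were computed over the 32224 genes in both tables. On simulated counts, 79% to 86% of genes changed 1.5-fold were recovered in the 4 comparisons. The simulation drew independent counts with the same spread for every gene of a table, so this is not the power of the tests on the real counts. Between pairs of libraries in a group, chi-square per degree of freedom was 3.05 to 19.03. That statistic takes counts as independent, and counting both mates would raise it, so agreement within sampling noise was not judged. Groups came from the labels; brc1-2 libraries 2a and 2b are columns that carry the same number. The labels name no separate plants behind the libraries. The p-values then measure only how far these libraries spread, which may be technical.

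The members, the gene lists and the tests were chosen with earlier results of these data known. Values in every library are given, per comparison, for up to 6 of the largest rises and 6 of the largest falls among called members with a mean of at least 1 CPM in one group and no overlap between groups, and up to 3 genes with the smallest adjusted p are named per partner list. Of 12 further expansins listed, EXPA19 was not analysed here. The 8 CUT&Tag samples of the series were not used here. Alternatives tried were DESeq2 1.42.0 size factors and Wald test, upper-quartile factors, limma-voom (limma 3.58.1), no filter, a filter of 1 CPM in 3 libraries, a threshold of 0.01, a replicate block, fits restricted to the 2 groups in question, and each library left out.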

Additional observations from a re-analysis of the deposited data

How the results depend on the processing

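The counts of members called, higher and lower stayed within 1.5 times the values above in all 4 comparisons under every alternative tried. With 1 library left out, the members called numbered 18 to 23 on rac-GR24, 24 to 27 in brc1-2, 27 to 28 after decapitation and 28 to 31 for decapitated WT against brc1-2. Those higher numbered 5 to 7, 11 to 12, 12 to 13 and 13 to 16, and those lower 13 to 17, 12 to 15, 14 to 16 and 14 to 16. Of 2215 values of single members under an alternative, 2120 kept their direction and side of the threshold, 71 lost the threshold, 24 passed it newly and 0 reversed. Same-numbered libraries did not deviate together, with correlations of 0.086, -0.034 and -0.058 in seedlings and 0.019, 0.007 and 0.008 for decapitated against intact WT, so the numbers were not taken as pairs. With the replicate block, XTH5 passed on rac-GR24 at 0.50 (edgeR adjusted p = 0.018) and EXPA13 no longer passed after decapitation at -0.11 (adjusted p = 0.09), and no other member's call changed. That second fit held only the 2 groups, and without the block it put EXPA13 at adjusted p = 0.099. No paired analysis was possible for brc1-2 because 2 of its columns carry the same number. With 3 libraries per group, leaving out 1 ended calls of members near 1 CPM, of small changes in abundant members, and in seedlings of changes of up to 0.33 on the log2 scale such as XTH8 and XTH17.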

Other observations

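XTH24, XTH18 and XTH19 lie in this order on chromosome 4 on the minus strand, 5161 and 1500 bases apart, between positions 14819192 and 14830224. In brc1-2, XTH24 fell by 1.86 on the log2 scale, while XTH18 rose by 1.16 ± 0.21 and XTH19 by 1.34 ± 0.22. In intact WT axils XTH24 stood at a mean of 421 TPM and its neighbours XTH18 and XTH19 at 1.24 and 1.06 TPM. In DMSO seedlings XTH19 stood at 125 TPM, XTH24 at 30.9 and XTH18 at 26.4 TPM. On rac-GR24 only XTH19 of the 3 passed the test.

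EXLA3 and EXLA1 lie 2012 bases apart on chromosome 3 on the plus strand. EXLA3 fell by 1.52 in brc1-2, and EXLA1 did not pass at 0.11 ± 0.12 (edgeR adjusted p = 0.47). EXLA1, EXLA2 and EXLA3 all missed the threshold on rac-GR24 and after decapitation. XTH25 and TCH4 lie 565 bases apart on chromosome 5 on the minus strand. TCH4 rose in brc1-2 and after decapitation, and XTH25, at under 1 CPM in every axillary library, passed in neither but was lower in decapitated WT than in brc1-2 by 1.38 ± 0.37 on the log2 scale (edgeR adjusted p = 0.0028).

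With all libraries and the settings of the report, EXPA9, EXLA1 and XTH5 passed the test in none of the 4 comparisons. Under other settings EXLA1 passed for decapitated WT against brc1-2 and XTH5 on rac-GR24. EXPA9 had 8.93 to 11.5 CPM in all 9 axillary libraries and 30.0 to 49.4 CPM in seedlings.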
